A study of Homo sapiens with 50 samples.

Results

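The comparison described here is between HepaRG cells exposed to isoxaflutole at 1 mM and the same cells exposed to isoxaflutole at 10 uM or 0.1 uM. It uses 15 of the 50 libraries of the series, chosen by title: 5 at 1 mM, 5 at 10 uM and 5 at 0.1 uM, with the 10 lower-dose libraries pooled and no control library in the test. HepaRG is a human hepatic cell line, bought here already differentiated, whose cultures hold hepatocyte-like and primitive biliary cells. The cells of all 15 libraries were kept from day 8 to day 14 in a test medium with 2% fetal bovine serum and 1% DMSO, so that both sides of the comparison carried solvent, serum and the same herbicide. The series also exposed cells to mesotrione and quizalofop-p-ethyl at the same concentrations and held 5 control libraries. The design text names 0.1 uM as representative of low environmental exposure, 10 uM as intermediate and 1 mM as high. No label states whether the 5 libraries of a dose were grown as separate cultures. The p-values therefore weigh differences against a spread between libraries that could be technical alone.

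Isoxaflutole is an isoxazole herbicide that plants convert to a diketonitrile, and the diketonitrile blocks 4-hydroxyphenylpyruvate dioxygenase, an enzyme of tyrosine degradation that mammals also have (gene HPD). In liver, foreign lipophilic compounds are sensed by nuclear receptors. PXR (NR1I2) and CAR bind them or are activated through them and switch on CYP3A4, CYP2B6 and UGT1A1, while the aryl hydrocarbon receptor (AHR) switches on CYP1A1. PPARalpha senses fatty acids and fibrate-type drugs and controls genes of lipid droplets and fatty acid oxidation such as PLIN2, ANGPTL4 and CPT1A. Hepatocytes are also the source of most plasma proteins, among them albumin (ALB), fetuin-A (AHSG), haptoglobin (HP) and complement.

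Promoter sequences are shown for the genes at either end of the comparison. CYP3A4 had the largest rise of all genes tested, CYP3A5 and CYP3A7 are its neighbours in the same cluster on chromosome 7, AHSG had the largest fall, and CYP2C8 is a CAR and PXR target that fell. The sequences are from RefSeq (build GRCh38.p14), 5′ to 3′ on each gene's own strand. In the CYP3A lines the capitals mark the 18 bases of the everted repeat that PXR and CAR are known to bind in CYP3A4, or the 18 bases most like it. In the AHSG and CYP2C8 lines they mark a match to CAAAGTCCA or its reverse complement, a form of the site of HNF4A, a hepatocyte transcription factor.
CYP3A4, chr7:99784295-99784394, minus strand: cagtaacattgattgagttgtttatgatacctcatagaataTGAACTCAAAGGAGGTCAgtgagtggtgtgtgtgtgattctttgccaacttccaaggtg
CYP3A5, chr7:99680051-99680150, minus strand: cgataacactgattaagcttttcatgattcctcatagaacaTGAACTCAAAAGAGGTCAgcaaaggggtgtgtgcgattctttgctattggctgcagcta
CYP3A7, chr7:99735306-99735405, minus strand: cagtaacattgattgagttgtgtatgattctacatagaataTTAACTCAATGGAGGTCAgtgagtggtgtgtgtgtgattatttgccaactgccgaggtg
AHSG, chr3:186612836-186612935, plus strand: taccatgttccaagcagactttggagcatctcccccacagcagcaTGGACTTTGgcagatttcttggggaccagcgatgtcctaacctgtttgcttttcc
CYP2C8, chr10:95069498-95069597, minus strand: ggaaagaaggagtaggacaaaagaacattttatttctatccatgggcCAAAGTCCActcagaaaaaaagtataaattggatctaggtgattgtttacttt

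Counted from 1 at the 5′ end of the 18-base site, the CYP3A5 site carried the substitution G11A relative to CYP3A4, in the spacer between the repeats. The CYP3A7 site carried G2T, in the first repeat, and A10T, in the spacer. The site began 169 bases before the RefSeq start in CYP3A4, 113 bases in CYP3A5 and 168 bases in CYP3A7. Of the 13513 genes tested below, 9401 had a promoter in the table by symbol, and the 250 bases before each start were searched on both strands. The repeat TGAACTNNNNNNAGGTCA was present in CYP3A4 and CYP3A5 and in no other of these genes, and in 3 of 35116 promoters in all (0.00854%).

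Other motifs were counted in the same windows as a description. CAAAGTCCA lay before 7 of 289 genes that fell (2.42%), 0 of 419 that rose and 43 of 9401 tested (0.457%), with 0.325% of all promoters. The C/EBP motif TTNNGCAA, bound by a family of hepatocyte and acute phase factors, lay before 54 of 289 genes that fell (18.7%), 34 of 419 that rose (8.11%), 8.86% of genes tested and 9.05% of all promoters. The AHR motif TNGCGTG lay before 8 of 289 genes that fell (2.77%), 24 of 419 that rose (5.73%) and 7.82% of genes tested (4.52% of all promoters). It was not more frequent among genes that rose. The PPAR motif AGGTCANAGGTCA, which shares the letters AGGTCA with the PXR and CAR repeat, lay before 0 of the genes that rose or fell and 2 of those tested (0.0171% of all promoters). A motif here is only a match of letters in a short window.

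The values are FPKM, fragments scaled by transcript length and library total, summed over the transcripts of a gene name. Summed FPKM ran from 587530 to 724149 at 1 mM and from 545272 to 708816 at the lower doses. Depth is not part of the table, and was estimated from the FPKM step of 1 fragment as 9890000 to 30550000 fragments, a range shared by the doses. The number of genes at 1 FPKM or more was lower at 1 mM, 12461 to 12892 against 12674 to 13488 (difference −392, exact two-sided permutation p = 0.0186, 5 against 10 libraries), but the exact permutation p was 0.0519 without replicate 4 at 1 mM. Loci of ribosomal RNA held 0.657% to 1.19% of the summed FPKM at 1 mM and 0.362% to 1.45% at the lower doses (exact permutation p = 0.654). Within a dose, log2 values of 2 libraries correlated at 0.934 to 0.957 over genes, and no library stood apart over all genes.

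CYP3A4 and genes of lipid droplets rose at 1 mM, while secreted plasma proteins, complement, alcohol dehydrogenases and several extracellular matrix genes fell. Of 13513 genes tested with limma on log2(FPKM + 1), 1004 passed an adjusted p of 0.05 (7.43%), 561 higher (4.15%) and 443 lower (3.28%). More than 2-fold changes were found in 99 of the genes that fell and 19 of those that rose. The 5 libraries at 1 mM and the 10 at lower doses did not overlap in 530 genes (3.92%), 298 of them higher (2.21%) and 232 lower (1.72%). The median log2 fold change over all genes tested was 2e-04. Because 1 FPKM was added before taking logs, a log2 fold change of a gene near 1 FPKM is smaller than the ratio of its levels.

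The count of 1004 depends on the handling of the table. It was 635 without the filter on low values, 1600 when unnamed transcripts were added to the gene of their locus, and 357 genes when each transcript was tested by itself. It was 167 in a fit of all 50 libraries and 1008 in a fit of 49, which leaves out replicate 5 of quizalofop-p-ethyl at 10 uM. That library had 5084 genes at 1 FPKM or more, where the other 49 had 11718 or more. Its summed FPKM was 234909, with 7.74% in ribosomal RNA loci. Of the 85 named genes that passed, 41 lost their call in the fit of 50 and 11 in the fit of 49. Among the 1 mM libraries, replicate 1 had the highest value in 275 of the 561 genes that rose and the lowest in 177 of the 443 that fell. Leaving it out gave 717 genes.

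**Figure D1:**
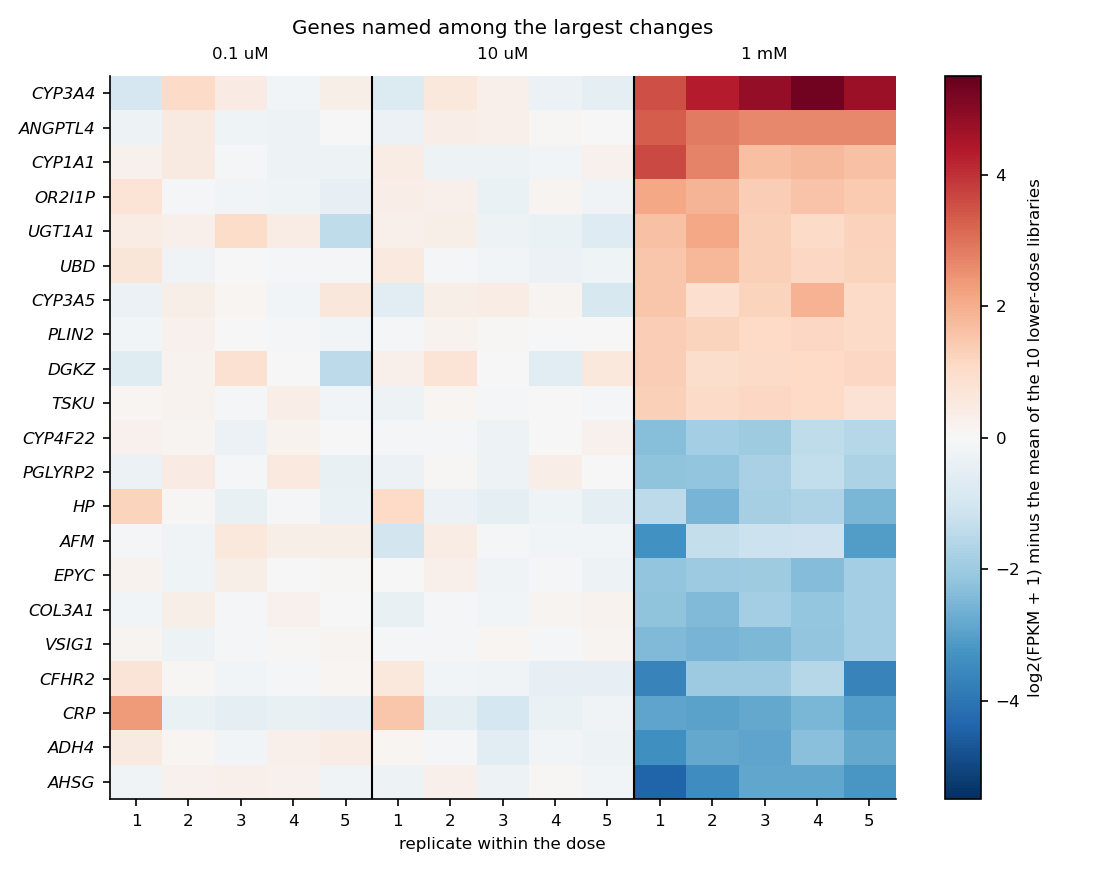
Each row is a gene named among the largest changes, and each column a library, grouped by dose. The colour is log2(FPKM + 1) minus the mean of the 10 lower-dose libraries. The rule that named these genes asked for no overlap between the groups. All 5 columns at 1 mM therefore had to differ in the same direction from the lower doses. Replicate 1 of both lower doses is higher than the rest for CRP and HP.

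Drug-metabolising genes under PXR and CAR were led by CYP3A4, the main drug-oxidising enzyme of adult liver (chromosome 7, 99756960 to 99784265, minus strand). CYP3A4 was measured at 80.3, 138, 196, 274 and 180 FPKM in the 5 libraries at 1 mM. It was 3.15, 9.36, 7.35, 4.498 and 3.99 FPKM at 10 uM and 2.64, 13.5, 8.48, 5.24 and 7.79 FPKM at 0.1 uM. The lowest library at 1 mM was thus far above the highest at a lower dose, and the values at 1 mM themselves spread more than 3-fold. The mean was 174 ± 71.8 FPKM (SD, n = 5) against 6.60 ± 3.35 (SD, n = 10), a log2 fold change of 4.54 (SE 0.33, limma adjusted p = 4.03e-07). In the 5 control libraries, which were not tested here, CYP3A4 was 2.76 ± 0.22 FPKM (SD).

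CYP3A5, a close relative with overlapping substrates, was 18.1, 11.5, 14.5, 24.4 and 12.7 FPKM at 1 mM and between 2.66 and 9.27 FPKM in the 10 lower-dose libraries, with no overlap. Its log2 fold change was 1.33 (SE 0.23, limma adjusted p = 0.00222). Named transcripts held only 33.5% of the signal at the CYP3A5 locus. With unnamed transcripts of the locus added, the levels were 41.4 ± 4.81 FPKM (SD, n = 5) against 21.4 ± 5.499 (SD, n = 10), a log2 fold change of 0.96. CYP3A7, the fetal form, was low, between 1.56 and 5.099 FPKM at 1 mM and between 0.23 and 2.12 at the lower doses, and the groups overlapped. Its log2 fold change was 0.89 (SE 0.23, limma adjusted p = 0.0249), and it kept this call in 19 of 26 other settings. The 3 genes have similar sequences, and no source used here tells how reads that match several of them were handled.

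UGT1A1, which conjugates bilirubin, was 171, 246, 136, 114 and 132 FPKM at 1 mM. It was between 33.4 and 67.9 FPKM at 10 uM and between 19.99 and 110 FPKM at 0.1 uM, so the groups came close but did not overlap. Its log2 fold change was 1.48 (SE 0.32, limma adjusted p = 0.00829), and the adjusted p was 0.216 in the fit of all 50 libraries. UGT1A1 kept its call in 25 of 26 other settings, the fit of 49 libraries among them. UGT1A3, which shares its last exons with UGT1A1, was 3.73 ± 0.59 FPKM (SD, n = 5) against 1.71 ± 0.29 (SD, n = 10). No source used here tells how reads of shared exons were divided. UGT1A6 was 161 ± 46.8 FPKM against 126 ± 22.3, and UGT1A9 was 47.5 ± 14.2 against 53.6 ± 12.7. Neither passed with unnamed transcripts added by locus (limma adjusted p = 0.255 and 0.581). TSKU, a secreted leucine-rich protein placed in the list as a PXR target, was 72.1 ± 9.44 FPKM against 33.4 ± 4.75 (log2 fold change 1.09, limma adjusted p = 6.88e-06).

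Of the 29 CAR and PXR genes listed, 24 were tested, and 6 rose and 3 fell (37.5%, beside 7.43% of all genes tested), with a list median of 0.25 against 2e-04 over all genes. The 6 that rose were CYP3A4, UGT1A1, CYP3A5, TSKU, CYP3A7 and UGT1A3. CYP2B6, the classical CAR target, was 3.04, 4.90, 5.53, 5.92 and 5.20 FPKM at 1 mM and between 1.18 and 4.37 FPKM at the lower doses. The groups overlapped, and its log2 fold change of 0.58 (SE 0.20) did not pass (limma adjusted p = 0.0927). ABCB1, a drug efflux pump, missed the threshold narrowly (log2 fold change 0.47, limma adjusted p = 0.0508). With unnamed transcripts added by locus its limma adjusted p was 0.0319. Named transcripts held 100% of the ABCB1 signal, so its own levels were the same in both settings. The receptor gene NR1I2 itself was 1.94 ± 0.32 FPKM against 2.03 ± 0.56.

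The 3 members that fell were CYP2C8, GSTA1 and SULT2A1. CYP2C8, a drug-oxidising enzyme also known as a PXR target, was 14.8, 14.1, 15.8, 25.4 and 17.95 FPKM at 1 mM and between 27.4 and 41.6 FPKM at the lower doses. The groups did not overlap, and the log2 fold change was −1.05 (SE 0.12, limma adjusted p = 5.72e-05). GSTA1, a glutathione transferase, was 168 ± 43.2 FPKM against 375 ± 160 (limma adjusted p = 0.0337), while its near-identical neighbour GSTA2 was 96.0 ± 17.0 against 95.0 ± 34.1, and reads of the pair are hard to separate. SULT2A1, a steroid sulfotransferase, had a log2 fold change of −0.54 (limma adjusted p = 0.0431). GSTA1 kept its call in 13 and SULT2A1 in 7 of 26 other settings.

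Of the 12 AHR genes, 2 passed as higher, beside 4.15% of all genes, and 0 as lower. The 2 were CYP1A1, whose direction the filter fixed, and CYP1B1. CYP1A1, which oxidises polycyclic compounds (chromosome 15, 74719542 to 74725610, minus strand), was 13.9, 6.99, 2.77, 3.15 and 2.64 FPKM at 1 mM. It was listed at 0 in 4 of the lower-dose libraries and reached at most 0.69 FPKM in the others. It met the filter of 1 FPKM in 5 libraries only through the 1 mM libraries, so it had to be higher there, and it also passed with no filter. The log2 fold change was 2.27 (SE 0.28), and replicates 1 and 2 at 1 mM were well above the other 3. CYP1B1 rose by 0.45 on the log2 scale (SE 0.11, limma adjusted p = 0.0209), again highest in replicates 1 and 2. Its relative CYP1A2 was 4.66, 2.91, 1.66, 1.39 and 1.65 FPKM against 0.36 to 1.84 and did not pass (limma adjusted p = 0.0716). With unnamed transcripts added by locus the limma adjusted p of CYP1A2 was 0.0466. Named transcripts held 100% of its signal, so its own levels were the same in both settings. The list count was 1 without replicate 1 or without replicate 2 at 1 mM. CYP1B1 then lost its call (limma adjusted p = 0.0526 and 0.0637).

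**Figure D2:**
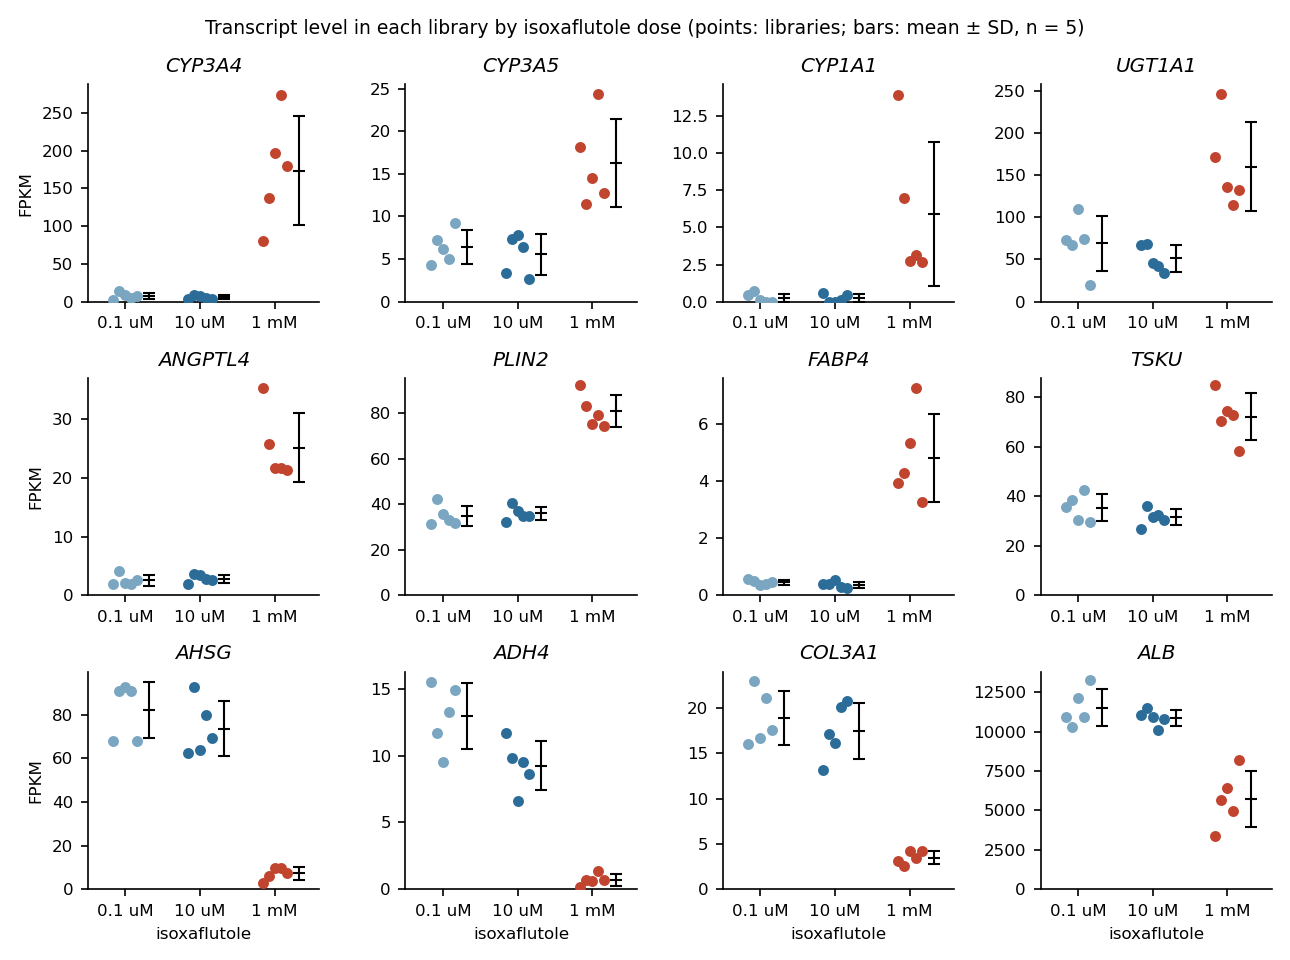
Each panel is 1 gene, with FPKM on the vertical axis from 0 and the 3 isoxaflutole doses on the horizontal axis. Points are libraries and the bars at their right are mean ± SD of 5. The 1 mM points lie apart from both lower doses in all 12 panels, above them for the first 8 genes and below them for AHSG, ADH4, COL3A1 and ALB. The gap is narrow for UGT1A1. Genes of largest change were named only where the groups did not overlap, so the separation is not a separate result. CYP1A1 and FABP4 also met the filter only through the 1 mM libraries, which fixed their direction.

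Some genes of lipid droplets and fatty acid oxidation under PPARalpha rose as well. Of 44 genes listed, 40 were tested, and 12 rose and 2 fell (35%, beside 7.43% of all genes), with a list median of 0.21. The 12 include FABP4, whose direction the filter fixed. ANGPTL4, a secreted inhibitor of lipoprotein lipase and a classical PPAR target (chromosome 19, 8363289 to 8374373, plus strand), was 35.2, 25.7, 21.7, 21.7 and 21.4 FPKM at 1 mM. It was between 1.88 and 3.63 FPKM at 10 uM and between 1.95 and 4.10 FPKM at 0.1 uM. The gap between groups was wide, with a log2 fold change of 2.82 (SE 0.16, limma adjusted p = 2.96e-08).

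PLIN2, the coat protein of lipid droplets in liver, was 92.3, 83.3, 75.4, 79.4 and 74.6 FPKM at 1 mM and between 31.2 and 42.2 FPKM at the lower doses. Its log2 fold change was 1.17 (SE 0.08, limma adjusted p = 1.02e-07), and its libraries at 1 mM differed little among themselves. FABP4, a fatty acid carrier best known from fat cells, was 3.95, 4.29, 5.34, 7.27 and 3.29 FPKM at 1 mM. It was between 0.24 and 0.58 FPKM in all 10 lower-dose libraries, so it too met the filter only through the 1 mM libraries, and it also passed with no filter. Its log2 fold change of 2.01 (SE 0.13) understates the ratio of the levels. CIDEC, another droplet protein, was 5.92 ± 1.16 FPKM against 2.41 ± 0.34 (log2 fold change 1.01, limma adjusted p = 2.18e-05).

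Enzymes of fatty acid use rose less. PDK4, a kinase that shuts off pyruvate oxidation, was 12.3 ± 1.94 FPKM against 6.34 ± 1.19 (log2 fold change 0.86). CPT1A, which admits fatty acids to mitochondria, was 42.5, 45.4, 38.5, 46.7 and 41.2 FPKM at 1 mM and between 22.3 and 32.2 at the lower doses. Its groups did not overlap (log2 fold change 0.58, SE 0.09, limma adjusted p = 0.000548). ACSL5, PEX11A, ACAA1, ACADVL and HADHA rose by 0.37 to 0.76 on the log2 scale without overlap, and CREB3L3 by 0.68 with overlap, a call kept in 14 of 26 other settings. The rise of ACSL5 was not seen in its most abundant single transcript (log2 fold change −0.03).

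Other PPARalpha targets did not rise. CYP4A11, the fatty acid omega-hydroxylase, was 1.33, 0.88, 1.17, 2.67 and 1.60 FPKM at 1 mM and between 2.07 and 9.01 FPKM at the lower doses. It fell by 1.497 on the log2 scale (SE 0.26, limma adjusted p = 0.00201), with 1 library at 1 mM overlapping the lower doses. VNN1, a pantetheinase, fell by 0.92 (limma adjusted p = 0.00979). FABP1, a liver fatty acid carrier (log2 fold change 0.33, limma adjusted p = 0.187), and PPARA itself (0.02, limma adjusted p = 0.973) did not pass.

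Many genes of secreted hepatocyte proteins fell. Of 35 plasma protein genes tested, 0 rose and 18 fell (51.4%, beside 3.28% of all genes lower), with a list median of −0.73. AHSG, which encodes the circulating calcification inhibitor fetuin-A (chromosome 3, 186612923 to 186621318, plus strand), was 2.67, 6.24, 9.64, 9.86 and 7.56 FPKM at 1 mM. It was 62.3, 92.7, 63.9, 80.1 and 69.5 FPKM at 10 uM and 68.2, 91.1, 93.0, 90.8 and 67.8 FPKM at 0.1 uM. Every library at 1 mM was below 10 FPKM and every lower-dose library above 60 FPKM, with a log2 fold change of −3.35 (SE 0.21, limma adjusted p = 7.97e-08).

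ALB, the albumin gene, was 3358, 5662, 6434, 4983 and 8214 FPKM at 1 mM and between 10110 and 13300 FPKM at the lower doses. Its groups did not overlap, the fall being 1.02 on the log2 scale (SE 0.15, limma adjusted p = 0.000395). In the fit of 49 libraries its adjusted p was 0.0873. In bulk RNA, fewer hepatocyte-like cells and less RNA of a gene per cell cannot be told apart. The transport proteins AFM (afamin, a vitamin E carrier) and CP (ceruloplasmin, the copper oxidase) fell by 2.01 and 1.66 on the log2 scale. AFM was 0.35, 4.43, 5.06, 5.22 and 0.64 FPKM at 1 mM, with replicates 1 and 5 lowest. PGLYRP2, an enzyme that degrades bacterial cell wall, was 1.95 ± 0.73 FPKM against 9.72 ± 2.67 (log2 fold change −1.86).

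Part of the complement genes fell as well: of 22 genes tested, 0 rose and 11 fell (50%, beside 3.28% of all genes lower), with a list median of −0.60. CFHR2, a factor H relative, was listed at 0 in replicates 1 and 5 at 1 mM and was 2.20, 2.27 and 3.35 FPKM in the others. It was between 8.50 and 20.4 FPKM at the lower doses, again without overlap (limma adjusted p = 0.000132). C8G, a subunit of the membrane attack complex, was 2.49 ± 2.28 FPKM against 18.2 ± 6.42 (log2 fold change −2.65). C5 (−1.85) lost its call without the libraries of replicate 1 (limma adjusted p = 0.257) and kept it in 6 of 26 other settings; with unnamed transcripts of its locus added it fell by 0.78.

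Of 18 genes of coagulation tested, 6 fell and 1 rose (38.9%, beside 7.43% of all genes), with a list median of −0.50. The fibrinogen chains FGB and FGG were 1017 ± 120.5 and 926 ± 107 FPKM at 1 mM, against 1986 ± 350.4 and 1764 ± 419, and the coagulation factor gene F9 fell by 0.83 on the log2 scale. In the apolipoprotein list, which also held the antioxidant enzyme PON1, 5 of 15 tested genes fell and 1 rose (40%, beside 7.43% of all genes). Those that fell included PON1 itself (−1.13), APOH (−1.09) and APOE (−0.46). APOL1 rose (0.24), with a call kept in 13 of 26 other settings. In the fit of 49 libraries the coagulation count was 2 lower and 1 higher, and FGB (limma adjusted p = 0.112) and FGG (limma adjusted p = 0.104) lost their calls.

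Acute phase proteins, which liver cells secrete on inflammatory signals, fell in 4 of 14 genes tested and rose in 0. That was 28.6%, beside 7.43% of all genes, with a list median of −0.52. CRP, C-reactive protein, was 2.06, 2.04, 2.27, 3.07 and 1.81 FPKM at 1 mM. It was 66.3, 14.8, 10.95, 16.8 and 19.1 FPKM at 10 uM and 115, 16.8, 14.8, 16.6 and 16.0 FPKM at 0.1 uM. The fall of 2.84 on the log2 scale (SE 0.45, limma adjusted p = 0.000831) stood beside a large difference among lower-dose libraries, where replicate 1 was above the other 4 at both doses. HP was 495, 233, 388, 419 and 234 FPKM at 1 mM. It was 2926, 1085, 949, 1150 and 964 FPKM at 10 uM and 3218, 1431, 1036, 1269 and 1061 FPKM at 0.1 uM, and fell by 2.01 (SE 0.31, limma adjusted p = 0.000648). HPR, close in sequence to HP, and SAA4 also fell.

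Replicate 1 of each dose carries a title number from the same run of consecutive sample numbers, 1 of 5 such runs, and the labels do not say what a run is. With the doses held as terms, the 3 libraries of this run differed from the other 12 in 35 of 13513 genes (0.259%, limma adjusted p under 0.05), 20 higher and 15 lower. These genes were chosen after their values were seen. LCN2 (175 against 27.99 FPKM), SAA2 (52.8 against 9.86), SAA1 (66.4 against 15.2), PLA2G2A, HP, SERPINA3, SOD2, CFB and C3, which inflammation is known to raise in liver, were higher. TTR (466 against 847 FPKM), APOA2, APOA1, TF and HRG, plasma proteins that it is known to lower, were lower. Abundant noncoding RNAs were lower too, among them RN7SK (82900 against 111500 FPKM) and RPPH1 (14830 against 21630). Summed FPKM was also lowest in replicate 1 at each dose: 587530 at 1 mM, 565772 at 10 uM and 545272 at 0.1 uM. What set this run apart was not tested.

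Serum amyloid genes and CRP are given by run and dose. SAA1 was 66.03 FPKM in replicate 1 at 1 mM and 9.81 to 14.9 FPKM in the other 4, and its log2 fold change of −0.35 did not pass (limma adjusted p = 0.737). SAA2 was 48.4 FPKM in replicate 1 at 1 mM and 5.61 to 9.79 in the others (limma adjusted p = 0.737). CRP in replicate 1 at 1 mM, at 2.06 FPKM, lay within the range of the other 4. This difference between genes was not tested. Without the 3 libraries of the run, an alternative chosen after seeing the data, 670 genes passed, 311 higher and 359 lower; CRP and HP kept their calls, and SAA1 gained one as lower (log2 fold change −0.44, limma adjusted p = 0.0456).

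**Figure D3:**
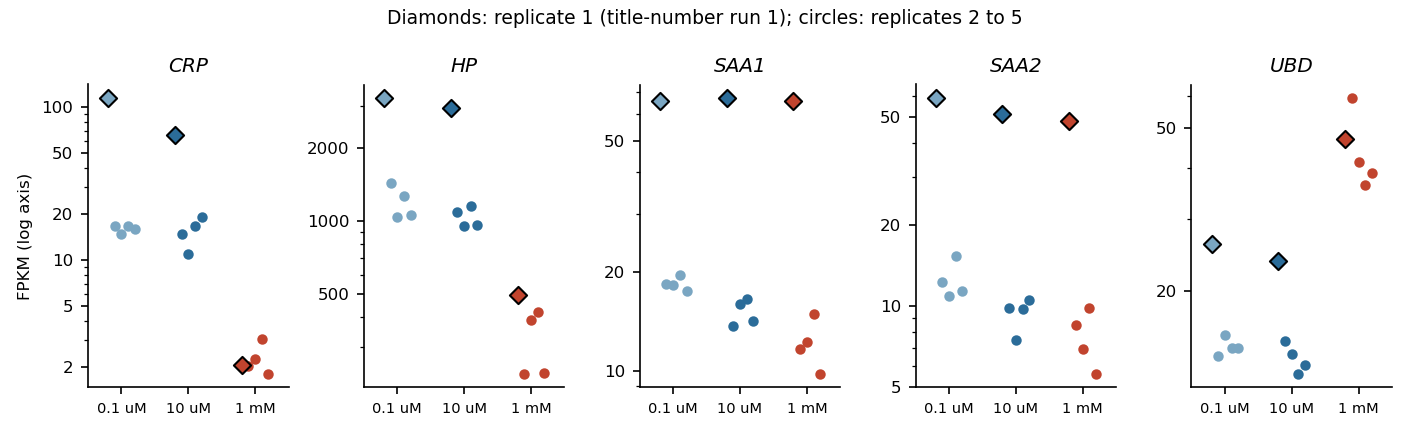
Panels show FPKM on a log axis for 5 genes at each isoxaflutole dose. Diamonds are replicate 1, whose title numbers form 1 run, and circles are replicates 2 to 5. The diamond is above the circles at all doses for SAA1, SAA2 and HP, but at 1 mM it lies among the circles for CRP, at 2.06 FPKM, and for UBD, at 46.99 FPKM.

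Some metabolic enzymes of hepatocytes fell. Of 26 genes tested in the list of alcohol and aldehyde dehydrogenases, 9 fell, 1 rose and 16 did not pass. Those past the threshold were 38.5%, beside 7.43% of all genes (list median −0.19). ADH4, which oxidises alcohols and retinol (chromosome 4, 99123657 to 99157792, minus strand), was 0.13, 0.66, 0.61, 1.37 and 0.66 FPKM at 1 mM. It was 11.7, 9.82, 6.59, 9.58 and 8.66 FPKM at 10 uM and 15.5, 11.7, 9.503, 13.3 and 14.9 FPKM at 0.1 uM. The log2 fold change was −2.85 (SE 0.19, limma adjusted p = 1.26e-07), with all libraries at 1 mM below 1.4 FPKM. ADH1A, ADH1B and ADH1C, near-identical ethanol-oxidising enzymes, fell by 1.21 to 1.44 on the log2 scale, ADH1A alone without overlap. AKR1C3, an aldo-keto reductase of steroids, rose by 0.41.

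In the urea cycle, ARG1, OTC and CPS1 fell by 1.48, 1.23 and 0.86 on the log2 scale. ASS1, which makes argininosuccinate in the same cycle, rose instead, from 189 ± 14.9 to 275 ± 24.5 FPKM (log2 fold change 0.54, SE 0.07, limma adjusted p = 9.34e-05). That list held 17 tested genes, 5 lower and 1 higher (35.3%, beside 7.43% of all genes).

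Of 25 phase II conjugating enzymes tested 7 fell, 1 rose and 17 did not pass (32% past the threshold, beside 7.43% of all genes). Those that fell were led by the glucuronosyltransferases UGT2B7 (−1.09), UGT2B10 (−1.05) and UGT2B11 (−0.79). MGST3, a microsomal glutathione transferase, rose by 0.50. Of 15 drug transporters 4 fell, 0 rose and 11 did not pass (26.7% past the threshold). Those that fell included SLC22A7, SLC22A9 and SLCO1B1, with log2 fold changes of −1.26 to −0.89. Without replicate 1 at 1 mM the transporter count was 2. CYP7A1, the rate-limiting enzyme of bile acid synthesis, was low throughout, 0.07 to 0.57 FPKM at 1 mM and 0.88 to 2.71 at the lower doses (log2 fold change −0.95, limma adjusted p = 0.00155). CYP4F22, a hydroxylase of very long fatty acids, was 2.28 ± 0.79 FPKM against 10.5 ± 1.66 (log2 fold change −1.83).

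Genes of tyrosine degradation, the pathway isoxaflutole blocks in plants, changed little by the named transcripts. Of 7 tested, 1 rose and 0 fell (14.3%, beside 7.43% of all genes). The 1 was the small cofactor-recycling protein PCBD1 (log2 fold change 0.19, limma adjusted p = 0.0286). HPD, the enzyme itself, depended on how transcripts were summed. By gene name it ranged from 1.07 to 30.8 FPKM at the lower doses, and its log2 fold change was 0.15 (SE 0.62, limma adjusted p = 0.928). With unnamed transcripts of its locus added it was 14.2, 12.8, 16.3, 21.0 and 16.4 FPKM at 1 mM. It was then 20.3, 25.9, 22.5, 25.8 and 25.6 FPKM at 10 uM and 20.3, 23.1, 30.8, 31.3 and 26.4 FPKM at 0.1 uM, a log2 fold change of −0.62 (limma adjusted p = 0.00195). On that scale only replicate 4 at 1 mM overlapped the lower doses. HGD, FAH and GSTZ1 did not pass, with log2 fold changes of 0.05 to 0.35.

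Of 29 NRF2 targets, the antioxidant genes, 12 rose, 0 fell and 17 did not pass, with a list median of 0.27. Those past the threshold were 41.4%, beside 7.43% of all genes. SRXN1, which repairs peroxiredoxins, was 108 ± 9.05 FPKM against 70.8 ± 7.18 (log2 fold change 0.61, limma adjusted p = 0.000127). GPX2 (0.61), FTH1 (0.57) and TXNRD1 (0.51) were next, while NQO1, a standard NRF2 and AHR target, did not pass (−0.02, limma adjusted p = 0.953). The call of FTH1 was kept in 11 of 26 other settings. Without the libraries of replicate 1 the NRF2 count was 7. Of 33 stress response genes that answer misfolded protein or lack of amino acids, 12 rose, 1 fell and 20 did not pass (39.4% past the threshold). At the top were ASNS (0.56), CHAC1 (0.68), STC2 (0.55) and ATF3 (0.52). The gene that fell was XBP1, a transcription factor of secretory cells, from 142 ± 17.6 to 86.4 ± 20.7 FPKM (log2 fold change −0.74), though its most abundant single transcript had 0.24. That count was 7 higher and 1 lower without replicate 1 at 1 mM, and STC2 kept its call in 10 of 25 other settings.

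Of 27 genes of the cell cycle 0 passed in either direction, beside 7.43% of all genes. Of 23 p53 targets 3 rose and 0 fell (13%), and of 36 nuclear genes of the respiratory chain 0 rose and 1 fell (2.78%). Of 29 genes of the interferon response and MHC class I, 4 rose and 0 fell (13.8%). UBD, a ubiquitin-like modifier induced by cytokines, was 46.99, 59.2, 41.3, 36.3 and 38.9 FPKM at 1 mM. It was between 12.6 and 23.7 FPKM at 10 uM and between 13.9 and 26.1 FPKM at 0.1 uM, highest in replicate 1 at both (log2 fold change 1.41, SE 0.16, limma adjusted p = 5.72e-05). OR2I1P, an olfactory receptor pseudogene on the other strand, 29553219 to 29554166 on chromosome 6 beside UBD at 29555515 to 29559925, rose by 1.67 on the log2 scale. The 2 genes are close enough to share reads unless strand was used in counting, which the labels leave unstated.

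Other genes among the 24 with the largest changes under the naming rule belong to no list above. VSIG1, a junctional adhesion protein, was 0.78 to 1.92 FPKM at 1 mM and 7.74 to 10.6 at the lower doses (−2.30, SE 0.11, limma adjusted p = 7.33e-09). DGKZ, a diacylglycerol kinase, rose by 1.12 (limma adjusted p = 0.0344), but with unnamed transcripts of its locus added its log2 fold change was 0.24, and its call was kept in 11 of 26 other settings. EPYC is described with the matrix genes.

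**Figure D4:**
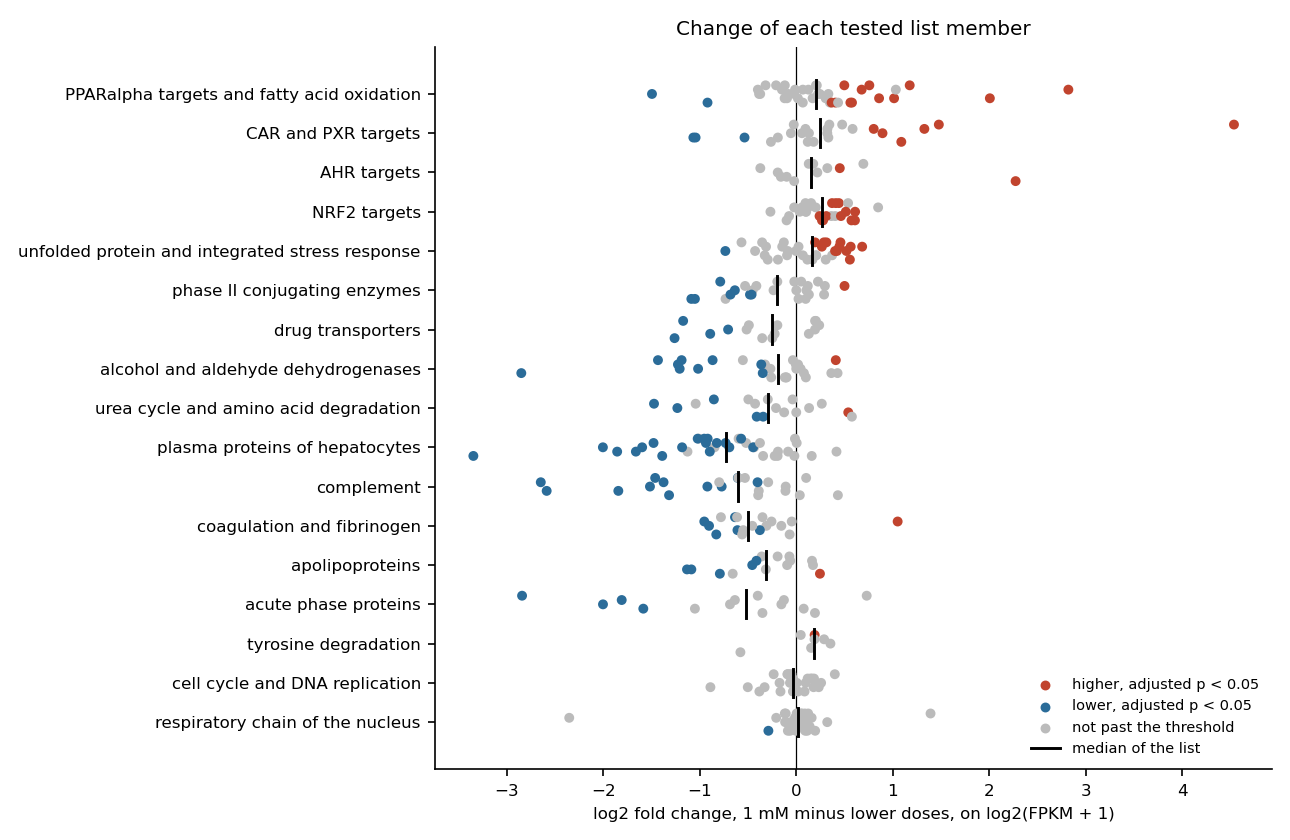
Each point is a tested gene of 17 lists, placed by its log2 fold change between 1 mM and the lower doses; red and blue points passed the threshold, grey did not, and the black bar is the median of the list. Plasma protein and complement points lie mostly left of 0, PPARalpha and NRF2 points mostly right, with CYP3A4 at 4.54 the farthest point.

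Markers of the cell types in such cultures were checked. The 21 hepatocyte markers summed to 10370 to 19230 FPKM at 1 mM and 21870 to 27500 FPKM at the lower doses, without overlap. Of 18 tested 0 rose and 11 fell (61.1%, beside 7.43% of all genes). ALB, SERPINA1 and APOA1 were the most abundant, while PCK1, TAT and CYP8B1 were below 1 FPKM on average. Biliary and progenitor markers summed to 605 to 713 FPKM against 708 to 807, with KRT19 the most abundant. Of 10 tested 1 rose (SOX4, 0.52) and 2 fell (SPP1, −0.63, and KRT19, −0.37), which is 30%. EPCAM and CFTR were below 1 FPKM. Leukocyte markers summed to 23.9 to 48.9 FPKM against 19.3 to 47.5, with PTPRC below 1 FPKM. Of 12 endothelial markers 11 were below 1 FPKM, CLEC4G was at 0 in all 15 libraries, and KDR fell. How far the share of cell types moved with the other results was not tested.

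Stellate and mesenchymal markers summed to 240 to 758 FPKM at 1 mM and 270 to 1010 FPKM at the lower doses, with FN1 the most abundant. Of the 24, 9 were below 1 FPKM, among them COL1A2, VIM, ACTA2 and DES. Of 16 tested 6 fell and 1 rose (43.8%, beside 7.43% of all genes). COL3A1, the fibrillar collagen of soft tissue, was 3.05, 2.498, 4.18, 3.39 and 4.24 FPKM at 1 mM and between 13.2 and 23.0 FPKM at the lower doses (log2 fold change −2.10, SE 0.12, limma adjusted p = 5.1e-08). EPYC, a small proteoglycan (−2.07), DCN, a collagen-binding proteoglycan (−1.79), and SFRP2, a Wnt modulator (−1.78), fell without overlap. COL1A1, the main collagen of bone and scar, rose from 2.84 ± 0.41 to 4.41 ± 1.06 FPKM, a call kept in 20 of 26 other settings.

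Each lower dose was also compared by itself. At 1 mM 541 genes differed from 10 uM (4%) and 591 from 0.1 uM (4.37%); both comparisons use the same 1 mM libraries. CYP3A4 differed by 4.69 from 10 uM and by 4.39 from 0.1 uM on the log2 scale, and AHSG by −3.27 and −3.43. Between 10 uM and 0.1 uM, a 100-fold step in dose, 0 of 13513 genes passed with limma (0%), with 366 at an unadjusted p under 0.05 and a smallest adjusted p of 0.638. The 3 lowest p-values belonged to RPL17, to the read-through gene RPL17-C18orf32, which shares its exons, and to LGR4, a receptor of R-spondins, and none passed. RPL17 was 129 ± 49.2 FPKM at 10 uM and 17.1 ± 28.95 at 0.1 uM, and RPL17-C18orf32 0.30 ± 0.67 against 29.8 ± 20.6, opposite in direction. Without replicate 1 at 0.1 uM, 2 genes passed.

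Mesotrione, a triketone herbicide that blocks the same plant enzyme, allowed a comparison at matched doses with no shared library: the change from its lower doses to 1 mM was subtracted from that of isoxaflutole, over 30 libraries. The difference passed in 43 of 14443 genes (0.298%), 40 of them higher with isoxaflutole (0.277%) and 3 lower (0.0208%). Treating the runs of title numbers as a block gave 91 genes, 79 higher and 12 lower, and leaving out replicate 1 of mesotrione at 1 mM gave 73, 56 higher and 17 lower. The largest differences among genes at 5 FPKM or more were those of CYP3A4 and ANGPTL4.

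CYP3A4 rose by 4.54 with isoxaflutole and by 1.17 with mesotrione on the log2 scale, a difference of 3.36 (SE 0.47, limma adjusted p = 0.000134). ANGPTL4 changed by 2.82 and 0.28, a difference of 2.54 (SE 0.21, limma adjusted p = 3.07e-09). PLIN2 changed by 1.17 and −0.34, opposite in sign, a difference of 1.52 (SE 0.11, limma adjusted p = 4.68e-10). FABP4 changed by 2.01 and −0.37, a difference of 2.38 (SE 0.16, limma adjusted p = 1.83e-10). With mesotrione FABP4 averaged 0.014 FPKM at 1 mM and 0.325 FPKM at the lower doses. FABP4 thus met the filter only through isoxaflutole at 1 mM, which fixed the sign of its difference. Other members of the PPARalpha list whose difference passed were CIDEC, PDK4, ACSL5 and HADHA, all higher with isoxaflutole. UBD, OR2I1P and TSKU also differed, by 1.30, 1.41 and 0.91.

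Among the genes that fell, 3 fell further with isoxaflutole: AHSG (−3.35 and −1.87, difference −1.48, SE 0.28, limma adjusted p = 0.00984), ADH4 (−2.85 and −1.21, limma adjusted p = 0.00995) and VSIG1 (−2.30 and −1.503, limma adjusted p = 0.0186). That of VSIG1 was lost without the filter on low values (limma adjusted p = 0.0651) and when replicate 1, 2 or 3 of isoxaflutole or replicate 4 or 5 of mesotrione at 1 mM was left out. For many others no difference was detected, which does not show equal change. COL3A1 changed by −2.10 and −2.46 (difference 0.36, limma adjusted p = 0.634), CRP by −2.84 and −2.38 (limma adjusted p = 0.886), and CYP4A11 by −1.497 and −1.489 (limma adjusted p = 0.998). CYP1A1 rose by 2.27 and 1.32 (difference 0.95, limma adjusted p = 0.459), and CYP3A5 by 1.33 and 0.02 (difference 1.30, limma adjusted p = 0.111).

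**Figure D5:**
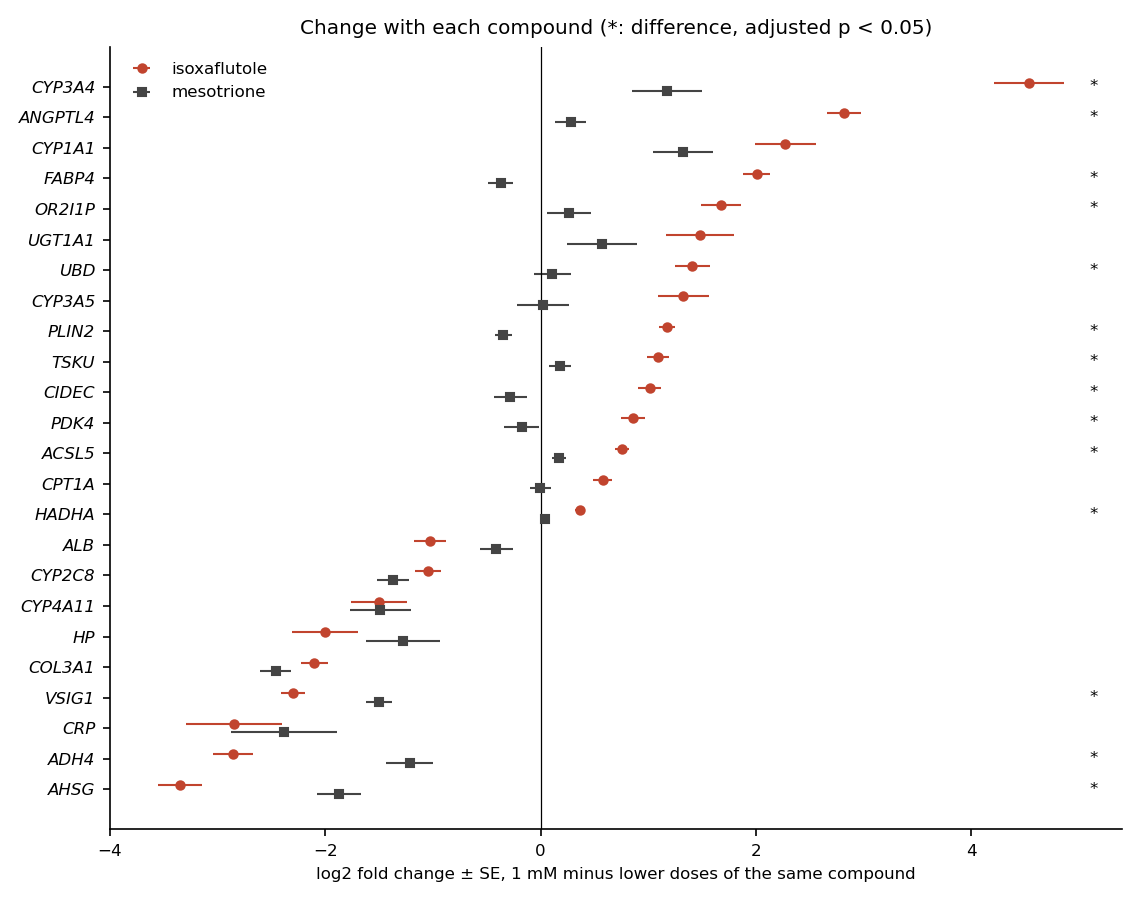
For genes named in the text the log2 fold change between 1 mM and the pooled lower doses is shown ± SE for isoxaflutole (circles) and mesotrione (squares), with an asterisk where the difference passed an adjusted p of 0.05. The circle of CYP3A4 lies at 4.54 and its square at 1.17, and the circles of ANGPTL4, FABP4 and PLIN2 lie to the right of squares near 0. FABP4 met the filter only through isoxaflutole at 1 mM, which fixed the sign of its difference.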

How the data were processed

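The authors deposited 1 table of FPKM values for 239290 transcripts in 50 libraries. Per the labels' protocols, total RNA was extracted, ribosomal RNA removed with a stranded kit, and 75 bp paired reads sequenced in 3 pools, but no label ties a library to a pool. Tools named in the submitters' processing notes are HISAT, HISAT2 and StringTie, with build GRCh38; versions and the use of strand are not given. The table held 24 values slightly below 0 in columns otherwise like the rest, per the file headers FPKM as well, and these were set to 0. All columns matched a sample by title.

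FPKM were summed per gene name over 199173 named transcripts. FPKM is relative to the library total, so a gene that takes more fragments lowers the others. A gene was tested if 5 or more of the 15 libraries had it at 1 FPKM or above, which left 13513 genes, 3 of which passed this filter only through the 1 mM libraries and are counted among those that rose. log2(FPKM + 1) values were compared with limma 3.58.1 in R 4.3.3 (eBayes with trend and robust set to true); p-values were Benjamini-Hochberg adjusted over all 13513 genes, with a threshold of 0.05. The fit was tested on simulated data. The difference from mesotrione was a contrast over 30 libraries, and library measures were compared by exact permutation.

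Members and lists were chosen with earlier results of these data known. Named genes were the 12 highest and 12 lowest fold changes among genes with an official symbol past the threshold, averaging 5 FPKM or more where higher and without overlap; up to 4 members per direction of a list; any PPARalpha, CAR and PXR, AHR or tyrosine gene; and ALB. Some genes that this rule names are not reported here. SAA1, SAA2 and the genes that differed by run were chosen after their values were seen. The runs were checked for pairing: same-run libraries of different doses had correlations of deviations of −0.143 to 0.136, and 1 of 15 pairs exceeded 0.1, so no block was used. Correlations over all genes cannot exclude a run difference in some genes, and 35 genes differed in run 1. With the block the main count was 977 instead of 1004, and the mesotrione count 91 instead of 43. Sequences were matched by symbol. Tables were read with pandas and drawn with matplotlib.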

Additional observations from a re-analysis of the deposited data

Results flagged for a closer look

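In 24 genes and 3 library measures at each dose, 81 groups of 5 libraries in all, 6 groups held 1 library far from the other 4. Chance flags about 1 in 20 such groups. All 6 were replicate 1 of a lower dose. CRP was 115 FPKM in replicate 1 at 0.1 uM against 14.8 to 16.8 in the others. HP was 2926 FPKM in replicate 1 at 10 uM and 3218 FPKM at 0.1 uM. UBD was 23.7 FPKM in replicate 1 at 10 uM and 26.1 FPKM at 0.1 uM. CFHR2 was 18.2 FPKM in replicate 1 at 10 uM against 8.50 to 10.5 in the others.

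The change with isoxaflutole differed from the change with mesotrione in 9 of the 24 genes, tested as a contrast over 30 libraries. The 24 were chosen for large changes with isoxaflutole, and over all genes 43 of 14443 differed (0.298%). On the log2 scale the difference was 3.36 for CYP3A4, 2.54 for ANGPTL4, 1.52 for PLIN2, 1.41 for OR2I1P, 1.30 for UBD and 0.91 for TSKU. It was −1.64 for ADH4, −1.48 for AHSG and −0.79 for VSIG1.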

How the results depend on the processing

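The count of 1004 genes between 1 mM and the lower doses became 635 without the filter on low values, 167 in the fit of all 50 libraries, 1600 with unnamed transcripts added by locus and 357 with each transcript tested by itself, and stayed within 1.5 times of 1004 under the other planned settings. Leaving out 1 library at a time gave 717 to 1045 genes, lowest without replicate 1 at 1 mM. Without the filter, 279 genes differed between 1 mM and 10 uM and 339 between 1 mM and 0.1 uM. Between 10 uM and 0.1 uM leave-one-out fits gave 0 to 2 genes. The difference from mesotrione passed in 91 genes with the runs of title numbers as a replicate block and in 30 to 73 leaving out 1 library. With that block, the count between 1 mM and the lower doses was 977; of the 15 libraries 5 correlated best with their own run. Scaling by median ratios moved the median of all genes by 0.02 and gave 676 genes higher and 412 lower.

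Some values changed sign. Adding unnamed transcripts turned HPD to −0.62, and its leave-one-out values ran from −0.16 to 0.28. Single transcripts gave ACSL5 −0.034, PPARA −0.10, RPL17 −2.21 and XBP1 0.24. Without the libraries of replicate 1, FAH was −0.014 and GSTA2 −0.074. Leave-one-out values crossed 0 for FAH (−0.03 to 0.11), GSTA2 (−0.08 to 0.21), NQO1 (−0.071 to 0.025), NR1I2 (−0.094 to 0.017) and PPARA (−0.118 to 0.093), none of which passed the threshold. The difference in genes at 1 FPKM or more ran from −456 to −340, and that in ribosomal RNA percent from −0.0159 to 0.152. The cause of these changes was not tested. VSIG1's difference from mesotrione ran from −0.90 to −0.72 leaving out 1 library. Depth is known only as an estimate, so no limit is given for genes listed at 0.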

Other observations

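Higher levels of SAA1, SAA2, CRP, HP and UBD in title-number run 1 were not limited to isoxaflutole. In the library of that run of title numbers, SAA1 and SAA2 were higher than in the other 4 libraries in 10 of 10 groups of the series, and CRP, HP and UBD in 9 of 10. In the control group CRP was 82.5 FPKM in that library and 13.2 to 18.9 FPKM in the others, and SAA1 was 140 FPKM against 10.4 to 22.9. At 1 mM mesotrione SAA1 was 47.5 FPKM in that library and 8.97 to 20.7 in the others, while CRP was 3.31 FPKM against 1.92 to 2.92. These genes were chosen after their values were seen, and no difference between groups was tested.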
